A study of Mus musculus with 8 samples.

Results

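*Tex19.1*, its neighbouring paralogue *Tex19.2*, and *Ubr2*, the gene of the E3 ubiquitin ligase that TEX19.1 binds, were examined in mouse ESCs after knockdown of *L3mbtl2*. Probes were assigned to these genes through their RefSeq accessions. *Tex19.1* (NM_028602) and *Tex19.2* (NM_027622) had 1 probe each and *Ubr2* (NM_146078) had 2, which makes 4 of the 39429 probes on the array and 3 of the 19751 genes that could be named. Whether the *Tex19.1* and *Tex19.2* probes each bind only their own paralogue was not tested, which limits what their separate values, their difference and their correlation show. The cells were VV3 ESCs, a male line with a *Vasa::Venus* transgene, in which a fluorescent protein reports activity of the germ cell gene *Vasa* (*Ddx4*), and were grown on STO feeder cells. They received siRNA against *L3mbtl2* (*L3mbtl2*-KD, 4 samples) or the non-silencing AllStars siRNA (control, 4 samples), and 100 ng of total RNA per sample was labelled for its own one-colour Agilent array. The methods name the isolation of *Vasa*-positive cells by FACS for the knockdown, describe the control only as ESCs given AllStars siRNA, and do not say whether the control was sorted. Effects of the siRNA and of the sorting are thus not separable here. Between 59.5 and 66.6% of the 43020 spots outside the controls were well above background on each array, and the number of arrays limits the precision.

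*Tex19.1* and *Tex19.2* belong to a mammal-specific gene family. TEX19.1 is found in germ cells, pluripotent cells and the placenta, is required for spermatogenesis, and takes part in the control of retrotransposons. UBR2 recognises proteins with destabilising N-terminal residues in the Arg/N-degron pathway and marks them for degradation, and TEX19.1 binds it and depends on it for its stability in the testis. L3MBTL2 is a subunit of PCGF6-PRC1, a Polycomb complex that also holds MAX, MGA and E2F6 and represses germ cell-related genes in ESCs.

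In the RefSeq table (GRCm38.p6) no gene lay between *Tex19.2* and *Tex19.1*, and both were read away from each other. The 250 bases before the start of each gene are shown because the changes described here concern this pair. *Tex19.1* lay on the plus strand (chr11:121145893-121146142) and *Tex19.2* on the minus strand (chr11:121118678-121118927). The sequences run in the direction of each gene, and capitals mark the match to a motif.
Tex19.1: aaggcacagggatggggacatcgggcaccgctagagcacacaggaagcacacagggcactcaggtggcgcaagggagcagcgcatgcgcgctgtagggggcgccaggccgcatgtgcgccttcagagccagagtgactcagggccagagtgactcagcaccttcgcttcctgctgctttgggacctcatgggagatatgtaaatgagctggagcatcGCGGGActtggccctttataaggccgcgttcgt
Tex19.2: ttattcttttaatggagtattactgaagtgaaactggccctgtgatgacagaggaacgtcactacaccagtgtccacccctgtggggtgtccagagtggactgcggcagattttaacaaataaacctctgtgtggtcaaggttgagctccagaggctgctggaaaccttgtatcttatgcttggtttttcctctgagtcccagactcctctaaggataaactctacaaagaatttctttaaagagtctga
All 3 genes matched a promoter entry of RefSeq. In windows of 300 bases, 250 before and 50 after the start, 3 motifs were searched on both strands. These were CACGTG, the E-box that MAX binds, TCCCGC, the core of E2F6 sites, and TCACAC, the core of T-box sites to which MGA belongs by its T-box domain. The *Tex19.1* window held TCCCGC once, on the strand opposite to the gene (GCGGGA as printed), 33 to 28 bases before the start. The *Tex19.2* and *Ubr2* windows held none of the 3 motifs. Of 32851 promoter windows in the table, 6562 held TCCCGC, 2349 held CACGTG and 4760 held TCACAC, so the single match is a description of these letters only. The paralogues differed in CG dinucleotides, with 16 in the *Tex19.1* window and 2 in the *Tex19.2* window, against a median of 7 over all windows. The *Ubr2* window, on chromosome 17, held 16, but it lay inside the span of the gene, so its counts may not describe the outermost start of *Ubr2*.

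The siRNA target and the reporter gene were examined first. Levels are given as log2 intensity relative to the 75th percentile of the array. *L3mbtl2* (NM_145993) was at 0.27, -0.18, -0.21 and -0.31 in control replicates 1 to 4 and at -1.45, -1.26, -1.58 and -1.73 in *L3mbtl2*-KD replicates 1 to 4. All *L3mbtl2*-KD samples were below all control samples, and 37.9% of the control intensity remained (log2 fold change -1.40, standard error 0.15, adjusted p = 0.000945 in limma). *Ddx4* (NM_010029) was between 0.85 and 0.99 in control ESCs and between 3.62 and 3.87 in *L3mbtl2*-KD ESCs, 7.11-fold higher (adjusted p = 4.88e-06 in limma, log2 fold change 2.83 with a standard error of 0.0875). As the *L3mbtl2*-KD cells were sorted on a reporter of this gene, a higher *Ddx4* level may have been selected before the test.

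*Tex19.1* was at 3.33, 3.43, 3.16 and 3.13 in control replicates 1 to 4. In *L3mbtl2*-KD replicates 1 to 4 it was at 5.32, 5.002, 4.998 and 5.45. The groups did not overlap, and the lowest *L3mbtl2*-KD samples, replicates 2 and 3, were well above the highest control sample, replicate 2. The mean rose from 3.26 ± 0.14 to 5.19 ± 0.23 (SD, n = 4 each), a 3.82-fold increase (log2 fold change 1.93, 95% interval 1.63 to 2.23, standard error 0.13, adjusted p = 0.000135 in limma). A two-sided exact permutation test gave p = 0.0286, the smallest that 4 against 4 samples allow. The probe was already bright in control ESCs, with spot intensities between 8337 and 9197, so the increase started from a gene that these cells expressed.

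*Tex19.2* was at -2.19, -2.45, -2.84 and -2.91 in control replicates 1 to 4. In *L3mbtl2*-KD replicates 1 to 4 it was at 0.49, -0.17, -0.44 and 0.17. Again the groups did not overlap, and in both of them replicate 1 was the highest sample. The mean rose from -2.60 ± 0.34 to 0.01 ± 0.41 (SD, n = 4 each), a 6.10-fold increase (log2 fold change 2.61, 95% interval 2.08 to 3.14, standard error 0.23, adjusted p = 0.000411 in limma, two-sided exact permutation p = 0.0286). The probe was well above background on all 8 arrays, but dim in control ESCs, with spot intensities between 126.6 and 190.4. The increase was 4.25-fold when median spot intensities with normexp correction and an offset of 50 replaced the deposited intensities (log2 fold change 2.09, limma adjusted p = 0.0002), and which of these changes moved it was not tested.

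Both probes of *Ubr2* were well above background on all 8 arrays. The brighter probe was at -1.54, -1.68, -1.42 and -1.52 in control replicates 1 to 4 and at -1.23, -1.91, -1.60 and -1.77 in *L3mbtl2*-KD replicates 1 to 4. The groups overlapped, since *L3mbtl2*-KD replicate 1 was the highest of all samples and *L3mbtl2*-KD replicate 2 the lowest. The log2 fold change was -0.088 (95% interval -0.43 to 0.25, standard error 0.15, adjusted p = 0.723 in limma, two-sided exact permutation p = 0.629). The other probe ranged from -2.91 to -2.68 in control ESCs and from -3.13 to -2.76 in *L3mbtl2*-KD ESCs, so these groups overlapped too (log2 fold change -0.14, 95% interval -0.37 to 0.09, limma adjusted p = 0.374, two-sided exact permutation p = 0.2). A change of *Ubr2* RNA was thus not detected with either probe, and the intervals give the size of change that 4 samples per group leave room for. The sign of the brighter probe was not settled, as its log2 fold change was 0.040 within the first slide and 0.0064 without *L3mbtl2*-KD replicate 2.

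**Figure D1:**
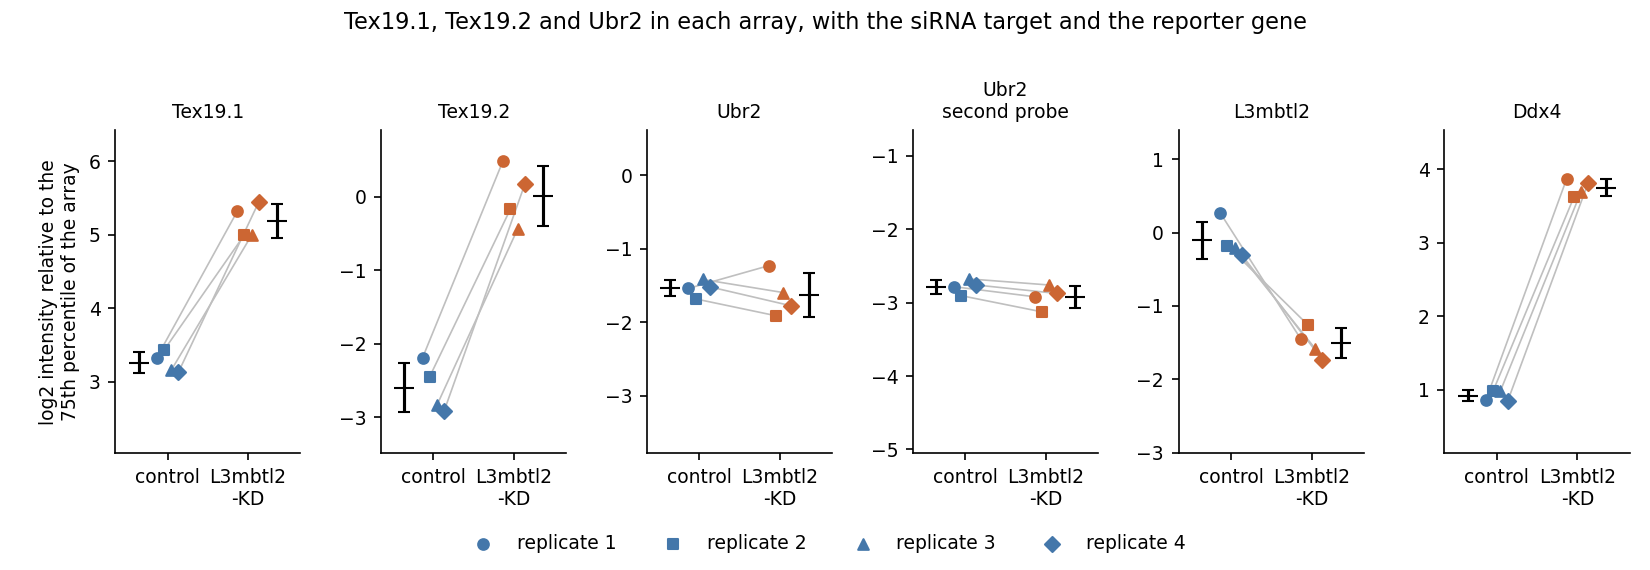
Level of each probe in each sample, as log2 intensity relative to the 75th percentile of the array, with a different range but the same scale on each vertical axis. Symbols are replicate numbers, lines join samples with the same number, and black bars are mean and SD (n = 4). *Tex19.1* and *Tex19.2* were higher in all 4 *L3mbtl2*-KD samples than in all control samples, whereas the groups overlapped for both *Ubr2* probes. The siRNA target *L3mbtl2* and *Ddx4* are shown beside them.

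Thus, 2 of the 3 genes were called, meaning an adjusted p below 0.05 together with a change above 2-fold. Of the 23525 probes tested, 2.49% were called as higher and 18.3% passed an adjusted p of 0.05 in either direction without regard to the fold change. Only 82 probes (0.349%) had a larger fitted rise than *Tex19.2* and 248 (1.05%) a larger one than *Tex19.1*. These counts include probes near background in control ESCs, such as that of *Asz1*, whose fitted rise is not exact. Such counts were not made with normexp. *Ubr2* lay in the middle of the distribution, where 58.2% of the probes had a higher log2 fold change than its brighter probe. Groups without overlap were also found for genes that did not pass, such as *Ate1* and *Trim28*. The share of all probes with such groups is not given here, so the lack of overlap alone does not set the *Tex19* genes apart.

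Each of the 2 slides carried samples of both groups. *Tex19.1* had a log2 fold change of 1.78 on the first slide and 2.08 on the other, and *Tex19.2* had 2.48 and 2.74. With slide as a block, the adjusted p was 0.000194 for *Tex19.1* and 0.000234 for *Tex19.2* in limma. Within the first slide alone no probe passed the adjusted threshold in limma. Control and *L3mbtl2*-KD samples took different positions on the slides, so position and siRNA cannot be told apart. The same-numbered samples deviated together from their group means and were treated as paired in an alternative fit. The paired differences of *Tex19.1* were 1.99, 1.57, 1.84 and 2.32 for replicates 1 to 4, and those of *Tex19.2* were 2.68, 2.28, 2.40 and 3.08. For both genes the smallest difference was found in replicate 2 and the largest in replicate 4. For the brighter *Ubr2* probe the paired differences were 0.31, -0.23, -0.18 and -0.26. For the other they were -0.14, -0.22, -0.084 and -0.115, all negative (adjusted p = 0.0626 in limma with the replicate block).

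Whether the changes of the 3 genes were equal was tested within each array, which removes the scaling between arrays. The log2 level of *Tex19.2* minus that of *Tex19.1* was between -6.04 and -5.52 in control ESCs and between -5.44 and -4.83 in *L3mbtl2*-KD ESCs. Hence *Tex19.2* rose more than *Tex19.1* in each of the 4 pairs, by 0.69, 0.70, 0.55 and 0.76 on the log2 scale for replicates 1 to 4. The mean was 0.68 or 1.60-fold (two-sided exact permutation p = 0.0286, with the 8 arrays not paired). All 3 pairs of genes had this p, the smallest that 4 against 4 samples allow, so adjustment over them could not change it. With median spot intensities and normexp correction the mean difference was 0.18 (two-sided exact permutation p = 0.314), and the cause was not tested. It was 0.77 with quantile normalization and 0.68 in the authors' table (exact permutation p = 0.0286 for both). With 1 control sample left out it was 0.62 to 0.79 (exact permutation p = 0.0286 each time). Without *L3mbtl2*-KD replicate 1, 2, 3 or 4 it was 0.56, 0.67, 0.76 or 0.71 (exact permutation p = 0.0571 each time). The differences from *Ubr2* were larger, at 2.02 for *Tex19.1* and 2.70 for *Tex19.2* (two-sided exact permutation p = 0.0286 for both, n = 4 per group), and were 1.89 to 2.13 and 2.12 to 2.86 with normexp, with quantile normalization, in the authors' table and with single samples left out. Within the first and the second slide they were 1.74 and 2.30 for *Tex19.1* and 2.44 and 2.96 for *Tex19.2*.

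**Figure D2:**
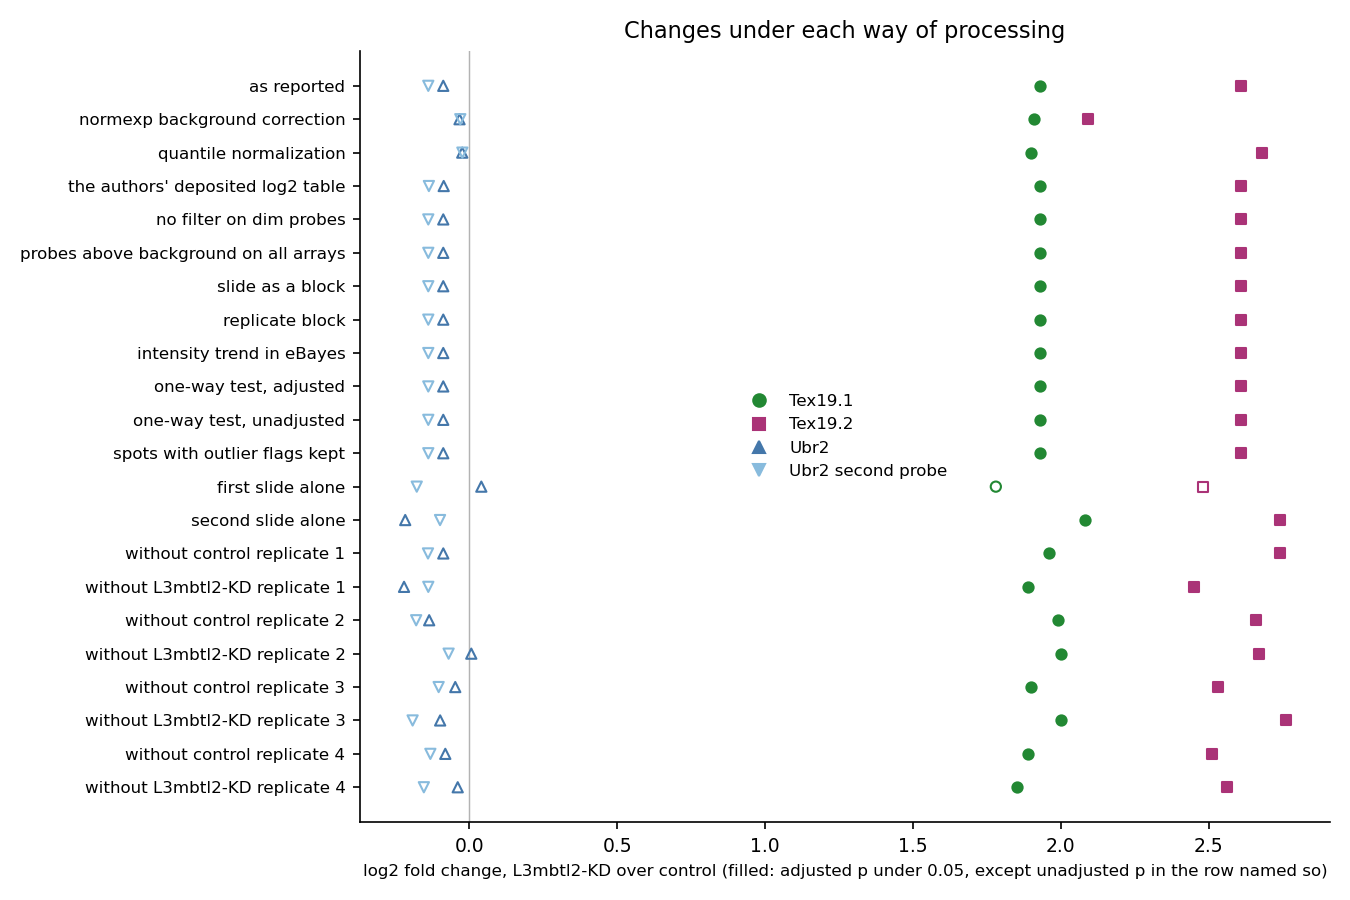
Log2 fold change (*L3mbtl2*-KD over control) of the 4 probes under each way of processing and with single slides or samples left out. *Tex19.1* stayed between 1.78 and 2.08 and *Tex19.2* between 2.09 and 2.76, with open symbols within the first slide alone, where the adjusted p was 0.0661 and 0.0717 in limma. Both *Ubr2* probes stayed near 0.

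The samples were also compared beyond the group difference. After the group means were taken away, the deviations of *Tex19.1* and *Tex19.2* over the 8 arrays correlated with r = 0.80, those of *Tex19.1* and *Ddx4* with r = 0.71, and those of *Tex19.2* and *Ddx4* with r = 0.51. The deviations of *Ubr2* correlated with those of *Tex19.1* at r = 0.082, of *Tex19.2* at r = 0.30 and of *Ddx4* at r = 0.53. These are descriptions of 8 arrays that share replicate numbers and slides. The genes most like *Tex19.1* over the 8 arrays were *Dgat1*, which makes triglycerides (r = 0.997, r = 0.91 for the deviations), *Ddx19b* (0.996 and 0.87), *Fthl17f* (0.995 and 0.97) and *Dpep3* (0.995 and 0.84). Those most like *Tex19.2* were the cold-inducible RNA-binding protein gene *Cirbp* (0.995 and 0.91), *Nlrp4c* (0.995 and 0.90), *Cluh* (0.994 and 0.92) and *Cdk10* (0.994 and 0.92). With separate groups the first value mostly follows the group difference. The size of the change was not shared, as the log2 fold change of these genes ran from 0.29 for *Cluh* to 2.09 for *Ddx19b* among those well above background on all arrays. *Dpep3* (2.82, or 1.41 with normexp) was so in only 2 control samples. For *Ubr2* the most similar genes were *Ppp1r1a* (0.94), *Lenep* (0.92), *Cdc42bpg* (0.91) and *Ccdc125* (0.90).

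The neighbours of *Tex19.1* and *Tex19.2* were examined next. Of the 8 nearest genes on each side in the RefSeq order, 10 could be tested and none passed an adjusted p of 0.05 in limma, with log2 fold changes between -0.40 and 0.25 (median -0.0093). Over all 13648 genes tested with 1 probe per gene, 9.35% were higher and 10.8% lower at an adjusted p under 0.05, and 322 were called as higher. On the side of *Tex19.2*, *Sectm1a* and *Sectm1b* were not well above background on any array. The nearest measured genes there were the T cell surface gene *Cd7* (-0.19), the casein kinase gene *Csnk1d* (0.22) and the lactate transporter gene *Slc16a3* (0.19). On the side of *Tex19.1* they were the urotensin receptor gene *Uts2r* (-0.19), *Ogfod3* (0.098) and *Hexdc* (0.25). With the replicate block, *Cd7* (adjusted p = 0.0463) and *Hexdc* (adjusted p = 0.0223) passed in limma, at these small log2 fold changes. That block let 4683 of all 23525 probes pass as higher and 5408 as lower.

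Around *Ubr2*, 12 of 16 neighbours could be tested, 3 were higher and 2 lower at an adjusted p under 0.05 in limma, and none changed more than 2-fold. The tubulin cofactor gene *Tbcc* (log2 fold change 0.62), *Rpl7l1* (0.41) and *2310039H08Rik* (0.67) were higher, where 9.35% of all genes were, and *Cnpy3* (-0.43) and *AI661453* (-0.54) were lower, where 10.8% of all genes were. *2310039H08Rik* and *Cnpy3* failed to pass in some fits with single samples left out, with adjusted p of up to 0.051 and 0.12 in limma. The 3 nearest measured genes on one side were *Prph2* (0.35, adjusted p = 0.0918, or 0.037 without control replicate 1), *Tbcc* and *Bicral* (0.036, adjusted p = 0.899, with either sign when single samples were left out), and on the other *Trerf1* (-0.22, adjusted p = 0.468), *Mrps10* (0.12, adjusted p = 0.319) and *Guca1b* (-0.24, adjusted p = 0.146, or 0.0161 with the replicate block). With the replicate block *Guca1a* (0.60, adjusted p = 0.183, or 0.0125 with the block) and *Gnmt* (-0.17, adjusted p = 0.41, or 0.0493) passed too, both chosen after their values were seen. *Ubr2* itself was among the genes of this region that did not pass.

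**Figure D3:**
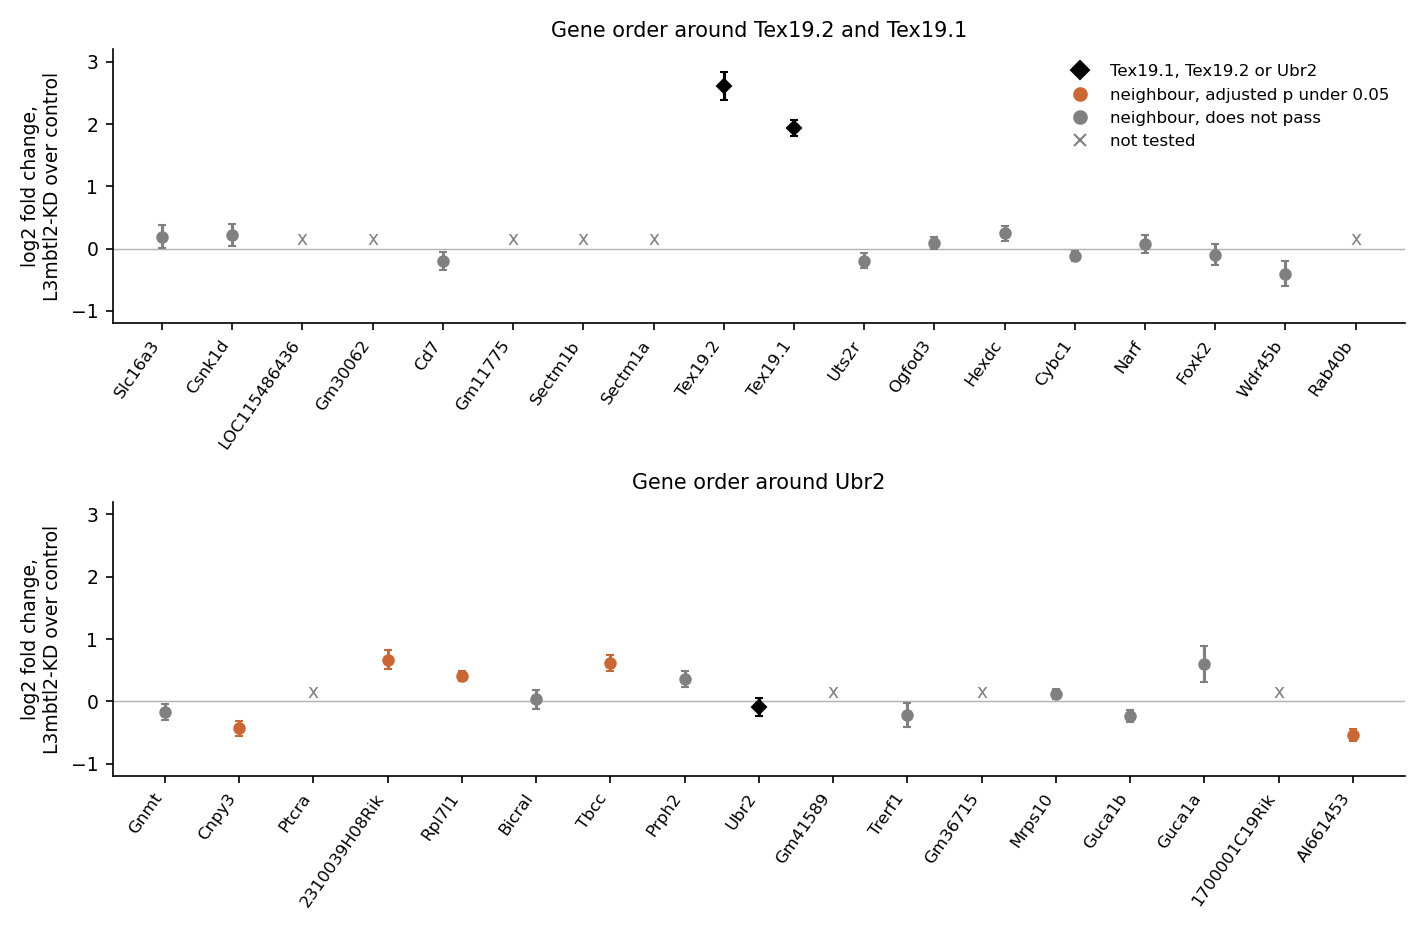
Log2 fold change (*L3mbtl2*-KD over control, bars are standard errors of limma) of *Tex19.2*, *Tex19.1*, *Ubr2* and the 8 nearest RefSeq genes on each side, in gene order and not to scale. *Tex19.2* (2.61) and *Tex19.1* (1.93) stood above 10 tested neighbours between -0.40 and 0.25, and *Ubr2* (-0.088) lay among neighbours between -0.54 and 0.67. Crosses mark genes that were not tested.

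The pathway of UBR2 was examined as gene lists, by counts and medians beside those of all 13648 genes tested with 1 probe per gene. Of these, 9.35% were higher and 10.8% lower at an adjusted p under 0.05, with a median log2 fold change of -0.011. Like *Ubr2*, none of the 6 other UBR-box and related E3 ligase genes passed the test (median 0.049). *Ubr1*, the closest paralogue of *Ubr2*, had a log2 fold change of 0.053 (adjusted p = 0.846), whose sign changed when some samples were left out. *Ubr3* had one of 0.61 (adjusted p = 0.247) and passed with the replicate block (adjusted p = 0.00386 in limma). Of the 9 genes for enzymes that make N-degrons and for E2 partners, none passed with 1 probe per gene (median 0.12), but 2, *Ube2a* and *Ate1*, were higher when any probe of a gene could pass. *Ube2a* and *Ube2b* encode the E2 enzymes with which UBR2 works, and had log2 fold changes of 0.18 (adjusted p = 0.252) and -0.32 (adjusted p = 0.0732, or 0.04 without control replicate 1). With the replicate block 4 of the 9 passed in limma, a share like that of all probes with this block. They were *Ube2a* (adjusted p = 0.0405), *Ube2b* (0.00735), the arginyltransferase gene *Ate1* (log2 fold change 0.27, 0.00804) and *Wdyhv1*, also called *Ntaq1* (log2 fold change 0.20, 0.0217), of which the last 2 were chosen after their values were seen.

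Among genes of Arg/N-degron substrates, 4 of 6 were tested and 1 was lower (median -0.17). This was *Bcl2l1* (log2 fold change -0.28, adjusted p = 0.027), with adjusted p between 0.045 and 0.081 when single samples were left out. *Rgs16* had a log2 fold change of -0.59 (adjusted p = 0.231, or 0.0192 with the replicate block, and 0.045 without control replicate 1), and *Rgs4* and *Rgs5* were not well above background on any array. Protein levels, on which this pathway acts, were not measured. Of 13 tested genes of cohesin and its acetyltransferases, a complex to which TEX19.1 has been linked in oocytes, 2 were higher and 1 was lower (median 0.018). The higher ones were the meiotic subunit genes *Rec8* (log2 fold change 1.38, adjusted p = 0.00581) and *Smc1b* (0.68, adjusted p = 0.00329). Of the other meiotic subunit genes listed, *Stag3* was not well above background on any array and *Rad21l* had no named probe. The mitotic subunit gene *Stag2* was lower (-0.43, adjusted p = 0.022, up to 0.059 with single samples left out), whereas *Rad21* (-0.15, adjusted p = 0.352, or 0.0484 with the replicate block) and *Smc3* (-0.034, adjusted p = 0.851, with either sign under other settings) did not pass.

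*Tex19.1* and *Tex19.2* were then set beside other germ-line genes. In a list of germ-line genes whose promoters are sensitive to DNA methylation, 16 of 22 tested genes were higher, all more than 2-fold, and 1 was lower (median log2 fold change 1.77). The log2 fold change of *Tex19.1* (1.93) was thus close to the median of this list, and that of *Tex19.2* (2.61) was above it. The list was written with earlier results known, and its count is no independent evidence of a direction. The largest rises were those of *Tex101* (8.21), the CTCF paralogue gene *Ctcfl* (4.67) and *Tdrkh* (3.21), which acts in the piRNA pathway. With normexp they were 7.54, 3.44 and 2.5, and *Ddx4* of the same list (2.71) then lay above *Tdrkh*. No control sample had *Asz1* well above background, and with the deposited intensities the gene was at least 2.51-fold higher in *L3mbtl2*-KD ESCs. Such a bound compares the bright group with the dimmest signal that was still well above background. With normexp the log2 fold change of *Asz1* was 0.835, a smaller rise than this bound, so the size of its rise is not settled. *Mael* (2.48) and *Piwil2* (1.81), also of the piRNA pathway, also rose. *Mov10l1* (0.0031, adjusted p = 0.99, with either sign when single samples were left out) and *Tdrd9* (0.28, adjusted p = 0.602, above background in 3 control samples) of this pathway did not pass, and *Tdrd1* was not well above background on any array; these 3 were chosen after their values were seen. The meiotic gene *Hormad1* fell (-1.17). Apart from *Asz1*, whose rise is not settled in size, the rises and the fall of the genes named here each had an adjusted p of at most 0.000641 in limma.

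Of 20 genes for retrotransposon control in ESCs, the process in which TEX19.1 takes part, 3 were higher and none was lower (median 0.14). They were *Dnmt3l*, a cofactor of de novo DNA methylation (log2 fold change 0.99, adjusted p = 0.00244), the zinc finger gene *Zfp809* (1.13, adjusted p = 0.0109) and the HUSH subunit gene *Pphln1* (0.60, adjusted p = 0.0131). *Trim28* (0.27, adjusted p = 0.101) and *L1td1* (0.39, adjusted p = 0.288, or 0.0235 with the replicate block) did not pass. With the replicate block 8 genes of this list were higher and 2 lower, to be read against the counts over all probes with this block given above. Only *Zfp809* of these 20 was called, as both *Tex19* genes were. Of the 16 subunit genes of PCGF6-PRC1, 3 were higher and 2 were lower (median 0.023). *E2f6* (0.56, adjusted p = 0.011), *Hdac2* (0.36, adjusted p = 0.0131) and *Yaf2* (0.41, adjusted p = 0.0183, up to 0.055 with single samples left out) were higher, and *Ehmt2* (-0.35, adjusted p = 0.0149) and *L3mbtl2* itself were lower. *Pcgf6* (0.071, adjusted p = 0.582) and *Max* (0.025, adjusted p = 0.887, with either sign under other settings) did not pass.

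**Figure D4:**
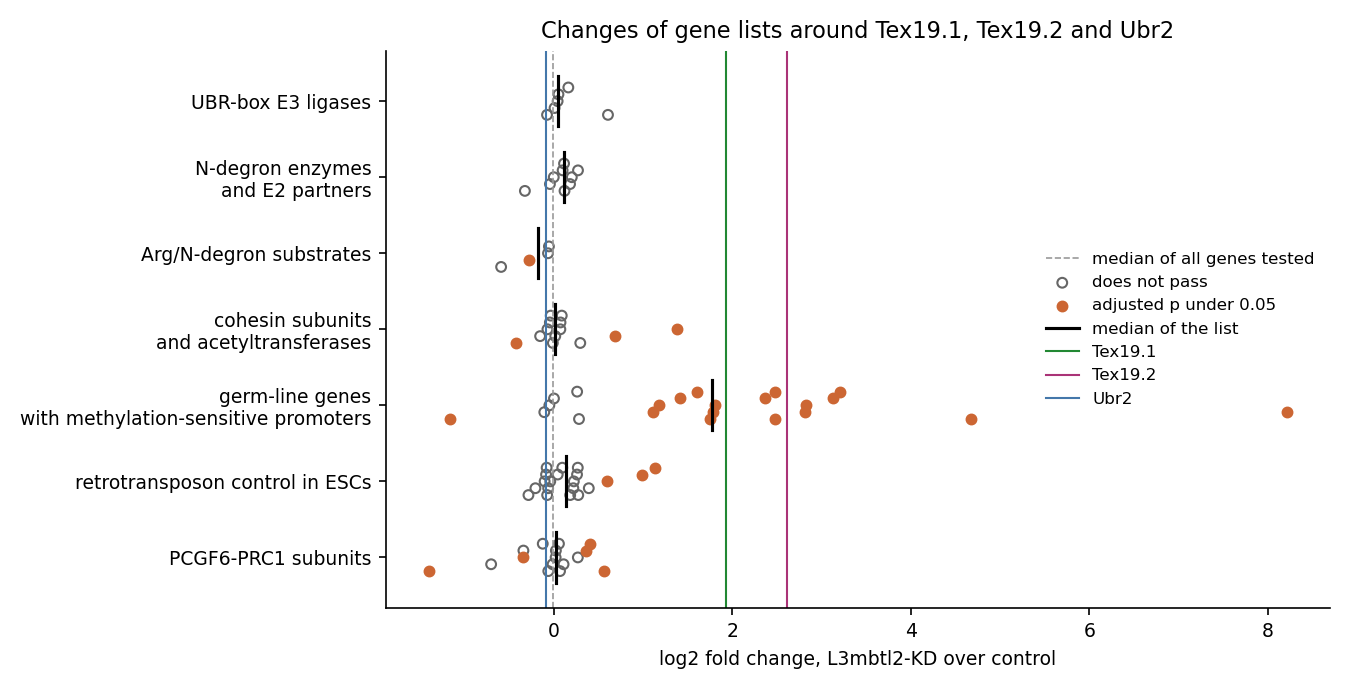
Log2 fold change (*L3mbtl2*-KD over control) of each tested gene in 7 gene lists, with filled circles for an adjusted p under 0.05 in limma and black bars for the median of the list. The vertical lines of *Tex19.1* (1.93) and *Tex19.2* (2.61) cross the range of the germ-line list (median 1.77), while that of *Ubr2* (-0.088) lies just below all genes of the UBR-box list and within the range of the other lists. *Asz1* is drawn at its fitted value, although the size of its rise is not settled.

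Markers of cell types were examined because the samples could differ in their mixture of cells. Fewer cells of a type and less RNA per cell cannot be told apart in these samples. Of 9 pluripotency genes, all well above background in both groups, only *Klf4* passed the test (-0.70, adjusted p = 0.0274, up to 0.071 with single samples left out), and *Pou5f1* (-0.17, adjusted p = 0.171) and *Sox2* (-0.12, adjusted p = 0.487) did not. *Nanog* had the largest change of this list (-1.32, adjusted p = 0.0962, or 0.027 without *L3mbtl2*-KD replicate 4, and -0.695 with normexp), with -2.11 on the first slide and -0.52 on the other. *Tdgf1* (-0.28, adjusted p = 0.0581) and *Dppa5a* (0.17, adjusted p = 0.299) passed with the replicate block (adjusted p = 0.00802 and 0.0316 in limma). These 3 were chosen after their values were seen. The late PGC and meiotic markers *Ddx4*, *Dazl* (1.61) and *Stra8* (1.34) were higher, like the *Tex19* genes, and *Sycp3* (-0.11, adjusted p = 0.629) did not pass. The summed intensity of these 4, all above background in both groups and *Stra8* the brightest, was 47.1, 32.5, 26.8 and 33.3 in control replicates 1 to 4 and 110, 93.3, 78.3 and 99.7 in *L3mbtl2*-KD replicates 1 to 4. Of 10 tested feeder fibroblast genes 8 were lower in *L3mbtl2*-KD ESCs (median -2.16). The summed intensity of all 12 listed, relative to the 75th percentile of the array, was 48.0, 54.5, 51.0 and 46.3 in control replicates 1 to 4 and 23.4, 31.7, 26.9 and 21.5 in *L3mbtl2*-KD replicates 1 to 4. *Fn1* was the brightest of them (log2 fold change -0.88). *Col1a2* (-2.81) and *Acta2* (-2.72) were lower. With the deposited intensities *Dcn* fell by at least 12.3-fold and *Col3a1* by at least 7.92-fold, as their signals were near background in all *L3mbtl2*-KD samples. With median spot intensities and normexp their log2 fold changes were -1.88 and -1.55, and which of these changes moved them was not tested. These falls are smaller than the bounds, which thus hold for the deposited intensities only, and the size of the falls is not settled. *Postn* was near background on all arrays, and *Lox* on all but 1 *L3mbtl2*-KD array. The part of this difference in the rise of the *Tex19* genes was not tested.

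Of 8 tested genes of two-cell-like cells 6 were higher (median 1.97), among them *Usp17lb* (2.845, or 2.2 with normexp), *Usp17la* (2.53), *Zscan4c* (2.18) and *Tcstv1* (2.12). The other 2, *Zfp352* (-0.15, adjusted p = 0.389) and *Sp110* (-0.0225, adjusted p = 0.942), did not pass in limma. The summed intensity of the list, with *Sp110* as its brightest gene, was 112, 121, 81.7 and 83.4 in control replicates 1 to 4 and 139, 131, 93.5 and 99.6 in *L3mbtl2*-KD replicates 1 to 4, higher in each of the 4 pairs although the groups overlapped. Of 6 primitive endoderm genes 4 were lower (median -1.21). They were *Gata4* (-0.92), *Pdgfra* (-1.50, or -0.80 with normexp), *Sox17* (-2.07, or -1.10 with normexp, above background in 3 *L3mbtl2*-KD samples) and *Dab2* (-2.53, or -0.945 with normexp, above background in 1), and the size of these falls is not settled. Their list, with *Gata6* the brightest, summed to 1.80, 2.15, 1.59 and 1.98 in control replicates 1 to 4 and to 1.08, 1.89, 1.43 and 1.15 in *L3mbtl2*-KD replicates 1 to 4, lower in each pair although the groups overlapped. *Gata6* itself did not pass, and for the 4 lower genes the groups did not overlap. None of 6 tested trophectoderm genes passed (median -0.31), including *Tfap2c* (-0.024, adjusted p = 0.96, with either sign under other settings) and *Krt18* (-0.38, adjusted p = 0.322). With the replicate block 1 gene of this list passed as lower in limma. The list, with *Tfap2c* as its brightest gene, summed to 8.84, 15.2, 12.9 and 9.77 in control replicates 1 to 4. In *L3mbtl2*-KD replicates 1 to 4 it summed to 7.79, 13.2, 12.3 and 9.17, lower in each pair although the groups overlapped. Of 4 tested Sertoli cell genes, *Dmrt1*, which germ cells also express, was higher (0.60, adjusted p = 0.00321). With the replicate block 2 genes of this list were higher in limma, to be read against the counts over all probes given above. The brightest gene of the list was *Wt1* (0.53, limma adjusted p = 0.241, or 0.0193 with the replicate block). The list summed to 2.24, 1.71, 1.53 and 2.17 in control replicates 1 to 4. In *L3mbtl2*-KD replicates 1 to 4 it summed to 3.52, 1.95, 2.42 and 2.98, higher in each pair although the groups overlapped. *Sox9*, near background in all *L3mbtl2*-KD samples, was at least 2.18-fold lower with the deposited intensities. With normexp its log2 fold change was -0.50, a smaller fall than this bound, and it did not pass (limma adjusted p = 0.055). Whether any of these differences had a part in the values of *Tex19.1*, *Tex19.2* and *Ubr2* was not tested.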

How the data were processed

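The authors deposited, for each of 8 one-colour arrays, spot intensity values with the background subtracted by Agilent Feature Extraction 10.7.3.1, and a table of log2 values that was compared with log2 intensity after a 75th percentile shift and median centring per probe (r of at least 0.9999 on each array, 39242 probes). Here, the 75th percentile of the array (791 to 1038) was subtracted from log2 of the deposited intensity. Spots flagged as outliers and control spots were dropped, the remaining spots of each probe were averaged, and none was saturated. Accessions named 26055 of 39429 probes (RefSeq, GRCm38.p6). In all, 23525 probes passed the filter (well above background in all 4 samples of a group) and were fitted in limma 3.58.1 (lmFit, eBayes; R 4.3.3), and p was adjusted over all of them by Benjamini-Hochberg. For genes with several probes, the one with the highest mean signal was used in lists. Single values were compared with two-sided exact permutation tests. The fit was also tested on simulated data.

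Deviations from the group means correlated between same-numbered samples (0.38 to 0.58) more than between others (-0.44 to 0.25), so the replicate numbers were taken to pair the samples, an inference from the values.

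The genes followed here and the gene lists were chosen with earlier results of these data known. Genes named in the text are all probes of *Tex19.1*, *Tex19.2* and *Ubr2*, then *L3mbtl2* and *Ddx4*, up to 4 passing genes with the largest change per list and direction with up to 2 more, the 3 nearest measured neighbours on each side and passing neighbours, and the 4 most similar genes. Alternatives were normexp on median spot intensities (in place of the planned means), quantile normalization, the authors' log2 table, other filters, slide or replicate blocks, a trend, the authors' one-way test, single slides, spots with outlier flags, and leaving out single samples.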

Additional observations from a re-analysis of the deposited data

Results flagged for a closer look

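In 14 of 189 groups of 4 samples from genes named here, 1 sample lay far from the other samples of its group by the ratio of its gap to the range of the group (Dixon's ratio at the 5% level), where chance gives about 9.45. None of the groups of *Tex19.1*, *Tex19.2*, *Ubr2*, *L3mbtl2* or *Ddx4* was among them. In control ESCs these were *Ctcfl* (0.871) and the *Tex19* neighbours *Cd7* (0.939) and *Csnk1d* (0.849) in replicate 1, and *Hdac2* (0.877), *Sox17* (0.865), *Mrps10* (0.923) and *Lenep* (0.856) in replicate 3, with *Nanog* (0.894) in replicate 2. In *L3mbtl2*-KD ESCs they were *Dab2* (0.903) and the *Ubr2* neighbours *2310039H08Rik* (0.894) and *Cnpy3* (0.924) and *Gnmt* (0.899) in replicate 1, *Pou5f1* (0.909) in replicate 2 and *Yaf2* (0.856) in replicate 4. Without the sample concerned, *Cnpy3* had a limma adjusted p of 0.0901 and *Yaf2* one of 0.0504 in place of values under 0.05, and *Cd7*, *Csnk1d*, *Nanog* and *Gnmt* still did not pass (adjusted p = 0.141, 0.19, 0.193 and 0.744).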

How the results depend on the processing

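*Tex19.1*, *Tex19.2*, *L3mbtl2* and *Ddx4* kept their direction and a p under 0.05 in 20 of 21 alternatives each, of which 18 used adjusted p in limma and 2 the authors' one-way test with and without adjustment. For the first 2 genes these p were at most 0.0108. The exception was the first slide alone, with 2 samples per group, where the log2 fold changes were 1.78, 2.48, -1.40 and 2.82 (adjusted p 0.0661, 0.0717, 0.0982 and 0.0508). There, 0 probes were called as higher and 0 as lower in limma, against 1570 higher and 1882 lower at an unadjusted p under 0.05. With single samples left out, *Tex19.1* ranged from 1.85 to 2.00 and *Tex19.2* from 2.45 to 2.76. The brighter *Ubr2* probe passed nowhere and turned positive on the first slide (0.040) and without *L3mbtl2*-KD replicate 2, with -0.22 to 0.0064 over single samples left out; the cause was not tested.

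The counts of probes called, 586 higher and 623 lower, were 348 and 190 with normexp, where 64.7% of calls were higher against 48.5%, and 59.0% were with quantile normalization; the cause was not tested. With only probes above background on all arrays, 423 were higher and 390 lower, as this filter removes probes that were dim in 1 group. With single samples left out, 523 to 639 were higher and 487 to 697 lower. The excess of *Tex19.2* over *Tex19.1* was 0.18 with normexp (exact permutation p = 0.314), and 0.56 to 0.79 with single samples left out.

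With the replicate block, *Tex19.1* (1.93, adjusted p = 0.00123) and *Tex19.2* (2.61, adjusted p = 0.000883) passed in limma and *Ubr2* did not (adjusted p = 0.553 and 0.0626), and 616 probes were called as higher and 677 as lower. Of the genes in the 7 lists around them, 47 passed in place of 29, while over all 23525 probes 4683 passed as higher and 5408 as lower in place of 2014 and 2300. Of 77 other named genes, without those chosen by likeness and without *Gata6*, *Sp110*, *Wt1* and *Zfp352*, 15 of those not passing in the unblocked fit passed with this block, some of them also under other alternatives, and none of the 41 passing was lost. Of those 41, 35 also passed with each sample left out. Signal over background limits the dim probes, among them that of *Tex19.2* in control ESCs.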
